A study of Mus musculus with 6 samples.

Results

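Iron uptake and storage genes were followed in mouse embryonic heart muscle that lacks Vhl. The 8 genes were chosen by symbol, as genes of iron entry, export, storage and control with known links to hypoxia-inducible factors (HIF), and all 8 had a row among the 13843 genes of the table. They are the transferrin receptor Tfrc, the iron importer Slc11a2, the iron exporter Slc40a1 (ferroportin), the ferritin chains Fth1 and Ftl1, the heme oxygenase Hmox1, and the iron regulatory proteins Ireb2 and Aco1.

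Polyadenylated RNA was sequenced from the ventricles of 6 embryos at E12.5, in mid-gestation, on a C57BL/6 background, after the atria and valve region were taken off. The knockout group held 3 embryos labelled with both Vhl alleles floxed and with Cre recombinase in 1 allele of Nkx2-5, a gene active in heart muscle progenitors. The control group held 3 embryos with both Vhl alleles floxed and wild-type Nkx2-5. Embryos with Cre and unfloxed Vhl were not analysed here, and loss of Vhl and the Nkx2-5 Cre allele cannot be told apart, and Cre made from Nkx2-5 leaves Vhl in cells that never had an active Nkx2-5 gene. By the labels, knockout 1 and control 1 came from litter 1, knockout 2 and control 2 from litter 2, knockout 3 from litter 4 and control 3 from litter 3. The design text of the series instead gives 3 litters in all, and the difference could not be settled here.

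Values are normalized reads, as deposited, in which the 9067805 to 12592902 reads of each library were scaled by 1 factor to a sum between 987131 and 1017772. Vhl stood at 11.1 and 10.3 in knockouts 1 and 2 and at 33.7, 36.3 and 38.6 in controls 1 to 3, but the third library with that label, knockout 3, had 34.5 and lay inside the control range. It is therefore shown apart, and the comparison below sets knockouts 1 and 2 against the 3 controls. Setting it apart rests in part on the Vhl value, so the difference in Vhl itself is circular, and that library was also at control level for the HIF targets below, so their tests without it lean on the same choice. The 10 heart muscle markers were all present and summed to 41039 and 36747 in knockouts 1 and 2 and to between 36053 and 43661 in the controls. Myh7 and Actc1 were the largest parts of these sums. Myl2, Tnni1 and Ryr2 lay below every control, as 17% of all genes did, and the other markers overlapped. The median log2 fold change of the 10 was -0.17, beside -0.01 over all genes, with 0 called in the test below.

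Cells take up iron bound to transferrin through the transferrin receptor, move it into the cytosol through Slc11a2, store it inside ferritin shells and release it through ferroportin, while heme oxygenase frees iron from heme. When iron is scarce, the iron regulatory proteins bind a short RNA hairpin, the iron-responsive element. A hairpin before the coding part, as in ferritin and ferroportin, then blocks translation, and hairpins after it, as in Tfrc, protect the RNA from decay. HIF is known to switch on Tfrc and Hmox1 in cultured cells and Slc11a2 and Slc40a1 in the mouse intestine, and in the presence of oxygen the VHL protein tags HIF for destruction.

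The hairpins are shown because their place differs between members, after the coding part in Tfrc and before it in the ferritin chains and ferroportin. A search of 12802 GENCODE M21 transcripts, 1 principal transcript per gene of the table, looked, on the sense strand of the untranslated parts, for a C, 5 letters, the loop CAGTGN and 5 letters able to pair with the first 5, with G to T pairs allowed. Such a hairpin was present before the coding part in 0.125% of these genes and after it in 0.695%. The pattern had no match in Epas1, Cdc14a or Cdc42bpa, counted below among genes with an iron-responsive element, so it can miss elements. Among the 8 members it was found in 4, and a member without a match may still carry such an element. Each match is given 5′ to 3′ on GRCm38 with the loop in capitals.
Fth1, 5′ part, chr19:9982732-9982760, plus strand: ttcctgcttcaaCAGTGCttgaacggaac
Ftl1, 5′ part, chr7:45459779-45459807, minus strand: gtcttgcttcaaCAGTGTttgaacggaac
Slc40a1, 5′ part, chr1:45925465-45925493, minus strand: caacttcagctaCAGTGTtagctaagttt
Tfrc, 3′ part, chr16:32631219-32631247, plus strand: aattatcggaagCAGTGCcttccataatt
Tfrc, 3′ part, chr16:32631598-32631626, plus strand: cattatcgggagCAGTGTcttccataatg
Tfrc, 3′ part, chr16:32631663-32631691, plus strand: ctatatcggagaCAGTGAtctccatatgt
Tfrc, 3′ part, chr16:32631710-32631738, plus strand: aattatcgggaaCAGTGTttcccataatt
The same loop thus stood 4 times in the 3′ part of Tfrc, and in the 5′ part of both ferritin chains and of ferroportin. RNA sequencing reads the amount of RNA, so a change in translation through the 5′ hairpins would not appear in the values below.

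Gene positions below are those of GENCODE M21 on GRCm38. None of the 8 iron genes passed the test in the hearts with low Vhl. With limma on log2(value + 1) and Benjamini-Hochberg adjustment over all 13843 genes, 0 of 8 members had an adjusted p under 0.05, where 4.25% of all genes did (3.01% higher and 1.24% lower). At an unadjusted p under 0.05 there was 1 member, Hmox1, where 17.8% of all genes had one. The quasi-likelihood test of edgeR (4.12% of genes called, 2.94% higher and 1.18% lower) and DESeq2 (5.97%, 3.97% higher and 1.99% lower) on recovered reads also called 0 members. The median log2 fold change was 0.07 over the members and -0.01 over all genes. Each library is 1 embryo, so the p-values measure the spread between embryos in groups of 2 and 3. In whole ventricles, fewer cells of a type and less RNA per cell cannot be told apart.

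**Figure D1:**
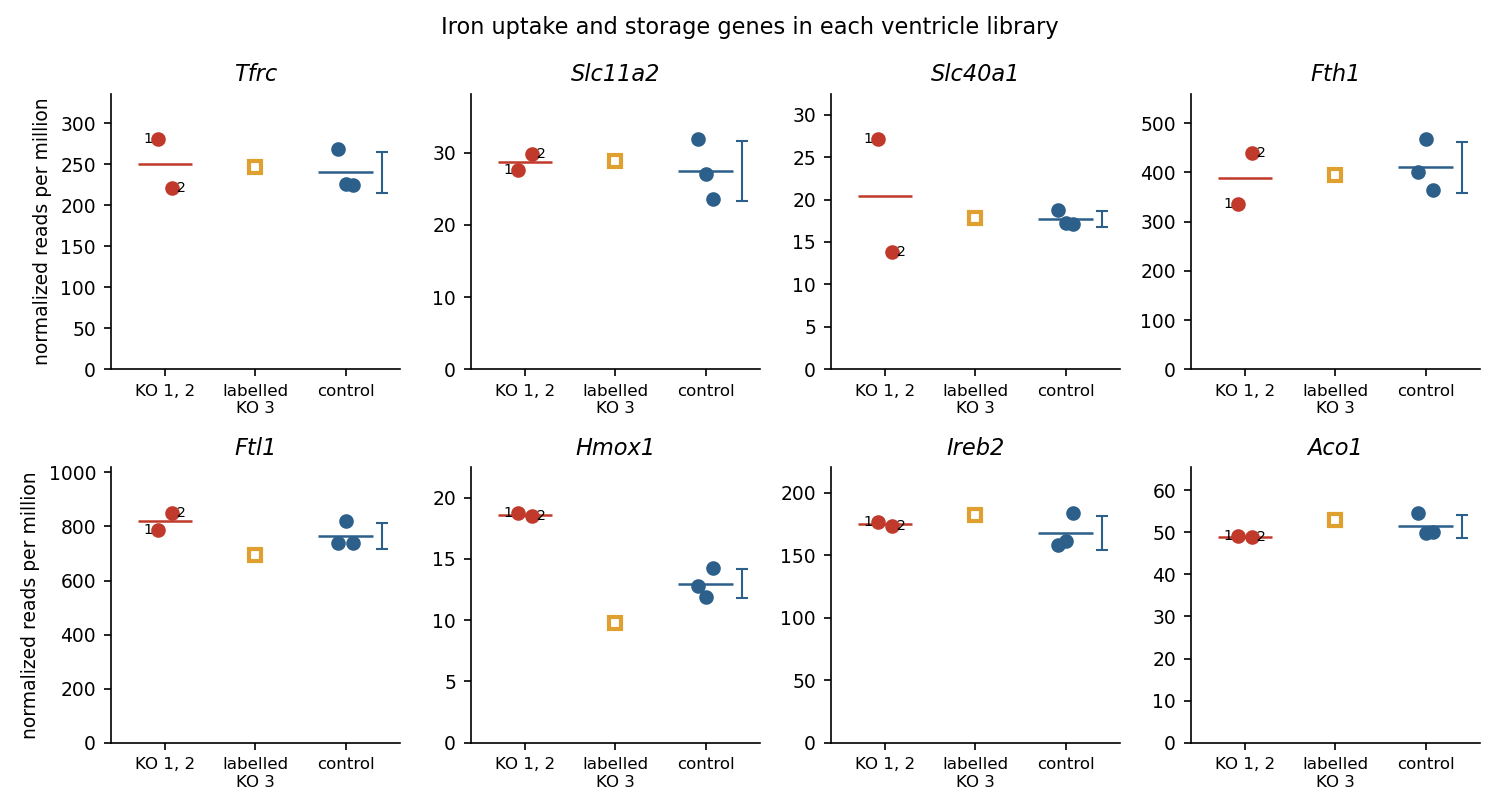
Normalized reads (vertical axes, from 0) of the 8 iron genes in each library, with knockouts 1 and 2 on the left (numbered red points), the library labelled knockout 3 as an open square, and the 3 controls on the right (blue points). Short lines are group means and the bar beside the controls is ± 1 SD (n = 3); the knockouts lay above every control for Hmox1 and below every control for Aco1 by a small margin, and were not apart from the controls for the other members.

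Tfrc (chr16:32608920-32632794), the receptor that brings transferrin-bound iron into the cell, had values of 280.1 and 221 in knockouts 1 and 2, against 269, 226 and 225 in controls 1 to 3. Knockout 1 was the highest and knockout 2 the lowest of these 5 libraries, so the groups overlapped over their whole range. The log2 fold change of Tfrc was 0.06 ± 0.12 (SE; limma adjusted p = 0.86), with a 95% interval of 0.856-fold to 1.26-fold. Within litters, the knockout value was 1.04 times that of its littermate in litter 1 and 0.977 times in litter 2. Slc11a2 (chr15:100387898-100425072), which moves iron across endosome and cell membranes, had values of 27.6 and 29.9 in knockouts 1 and 2, against 31.8, 27.0 and 23.6 in the controls. Both knockouts lay inside the control range, and the log2 fold change was 0.07 ± 0.13 (limma adjusted p = 0.84), with an interval of 0.848-fold to 1.30-fold.

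Slc40a1 (chr1:45908068-45926523), the known route of iron out of the cell, differed more between the knockouts than between the groups. It had values of 27.1 in knockout 1 and 13.8 in knockout 2, against 18.7, 17.2 and 17.1 in the controls. Knockout 1 stood above every control and knockout 2 below every control, with a ratio of 1.96 between them, while the coefficient of variation of the controls was 5.23%. The log2 fold change was 0.13 ± 0.24 (limma adjusted p = 0.84) and its interval, 0.744-fold to 1.61-fold, was the widest of the 8. Without knockout 1 the log2 fold change was -0.33, and without knockout 2 it was 0.59. Other genes of the iron lists were also high in knockout 1, a choice made after their values were seen. The serum transferrin gene Trf had 17.2 and 8.68 in knockouts 1 and 2, against 10.3, 12.8 and 9.44 in the controls. Cybrd1, an iron reductase, had 15.03 and 7.01 in knockouts 1 and 2, against 8.10, 8.64 and 10.5 in the controls. The 8 fibroblast and smooth muscle markers summed to 3790 and 3186 in knockouts 1 and 2 and to between 1822 and 2653 in the controls. Only Acta2 and Tagln lay above every control, and the others, Col1a1, Col3a1, Postn and Pdgfra among them, overlapped. Col1a1 was also high in knockout 1, with 731.5 and 262.9 in knockouts 1 and 2, against 335, 293 and 379 in the controls. Pdgfra, Pdgfrb, Tagln and Myh11 were instead lower in knockout 1 than in knockout 2. Acta2 alone had 1568.6 and 1515.1 in knockouts 1 and 2, against 801.7, 973.5 and 1023.5 in the controls. The part of these markers in the Slc40a1, Trf and Cybrd1 values was not tested. Macrophages are rich in Slc40a1, and the 9 macrophage markers with a row (of 12; Ptprc, Cd163 and Timd4 had none) summed to 89.9 and 81.1 in knockouts 1 and 2 and to between 76.6 and 113 in the controls. Lyz2 alone made up 55.7 and 42.7 of the sums in knockouts 1 and 2. The median log2 fold change of the 9 was -0.36, with 0 called, and the part of macrophages in these values was not tested.

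The ferritin chains were the most abundant of the members. Fth1 (chr19:9980598-9985098), the heavy chain that oxidizes iron, had values of 336 and 439 in knockouts 1 and 2, against 400.1, 467 and 365 in the controls. Knockout 1 lay below every control and knockout 2 inside their range, and the log2 fold change was -0.09 ± 0.14 (limma adjusted p = 0.80), with an interval of 0.754-fold to 1.17-fold. Ftl1 (chr7:45457944-45459884), the light chain that helps to form the iron core, had values of 788 and 849.8 in knockouts 1 and 2, against 739, 819.9 and 737 in the controls. The groups overlapped, and the log2 fold change was 0.10 ± 0.09 (limma adjusted p = 0.63), with an interval of 0.930-fold to 1.23-fold. The ratio of Ftl1 to Fth1 values was 2.34 and 1.93 in knockouts 1 and 2 and 1.85, 1.76 and 2.02 in the controls. Ftl1 shares stretches of at least 200 bases at 90% identity or more with 9 other annotated genes, among them Ftl1-ps1 at 99.6% over 910 bases, and Fth1 with 1. None of these had a row in the table, and how reads were shared among such copies makes the ferritin values uncertain.

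Hmox1 (chr8:75093621-75100589), which opens the heme ring and frees its iron, was the member nearest to a call. It had values of 18.8 and 18.5 in knockouts 1 and 2, against 12.8, 11.9 and 14.3 in the controls. Both knockouts lay above every control, as they did for 18.1% of all genes, and the groups were apart in either direction for 35.1%. The log2 fold change was 0.49 ± 0.12 (limma adjusted p = 0.078; edgeR 0.076; DESeq2 0.11), with an interval of 1.15-fold to 1.72-fold from 107 to 232 reads per library. Each knockout exceeded its littermate, by 1.47 times in litter 1 and 1.55 times in litter 2. With litter as a block, over the 4 littermates of litters 1 and 2, Hmox1 passed at a log2 fold change of 0.56 (limma adjusted p = 0.031), in a fit that called 8.13% of all genes (4.92% higher and 3.21% lower) and left 1 residual degree of freedom. That fit reuses the same knockouts and is no separate support. Macrophages are rich in Hmox1 too, their marker sums and median are given above, and their part in the Hmox1 values was not tested. Most markers of the outer layer of the heart were higher in the knockouts. The 7 epicardial markers summed to 725 and 629 in knockouts 1 and 2 and to between 305 and 377 in the controls. Of these, Wt1, Krt19 and Upk1b were called higher (3 of 7), and only Aldh1a2 overlapped the controls. Krt19 alone had 268 and 210 in knockouts 1 and 2, against 43.8, 49.2 and 35.2 in the controls. The part of the epicardial markers in the Hmox1 values was not tested.

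The RNA of both iron regulatory proteins stood close to control levels. Ireb2 (chr9:54863789-54912530), which encodes the regulatory protein that is itself degraded when iron is plentiful, had values of 177 and 174 in knockouts 1 and 2, against 158, 161 and 184 in the controls. Both knockouts lay inside the control range, and the log2 fold change was 0.07 ± 0.08 (limma adjusted p = 0.74), with an interval of 0.917-fold to 1.195-fold. Aco1 (chr4:40143081-40198338), which encodes a protein that is an aconitase with its iron-sulfur cluster and an RNA-binding protein without it, had values of 49.1 and 48.8 in knockouts 1 and 2, against 54.6, 49.8 and 50.03 in the controls. Both knockouts lay below every control, as for 17% of all genes, but the group means differed by less than the SD of the controls, 2.71. Its log2 fold change was -0.07 ± 0.08 (limma adjusted p = 0.72), with an interval of 0.837-fold to 1.08-fold.

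The intervals set a limit on what could have been missed. For the 7 members other than Hmox1, the upper ends lay between 1.08-fold and 1.61-fold and the lower ends between 0.744-fold and 0.930-fold. Over the same 5 libraries, the 4 HIF targets outside iron metabolism had larger fold changes, beside values in labelled knockout 3 of 112 for Egln1, 287 for Slc2a1, 273 for Pdk1 and 172 for Bnip3. With that library among the knockouts none of the 4 passed, and the log2 fold change of Egln1 was 1.00 (limma adjusted p = 0.77). Egln1, a prolyl hydroxylase that senses oxygen, had values of 297 and 319.7 in knockouts 1 and 2, against 108, 111 and 109 in the controls, and its interval was 2.51-fold to 3.12-fold (limma adjusted p = 6.9e-05). Slc2a1, a glucose transporter, rose by 1.04 ± 0.10 on the log2 scale (limma adjusted p = 0.0012), Pdk1, a kinase that restrains pyruvate dehydrogenase, by 1.13 ± 0.07 and Bnip3, a mitophagy receptor, by 1.98 ± 0.13 (both 0.00025). Epas1, which encodes the HIF-2 alpha subunit tied to intestinal iron uptake, had values of 65.5 and 60.4 in knockouts 1 and 2, against 64.9, 55.1 and 64.2 in the controls (limma adjusted p = 0.89). Hif1a RNA was lower, with 185 and 163 in knockouts 1 and 2 (labelled knockout 3 had 473), against 457, 405 and 447 in the controls (limma adjusted p = 0.00025), while Arnt, the shared beta subunit, had a log2 fold change of -0.06 ± 0.07 (limma adjusted p = 0.75). Nkx2-5, the gene that carries Cre, had values of 51.6 and 66.7 in knockouts 1 and 2, against 75.7, 79.2 and 68.6 in the controls (limma adjusted p = 0.19, and 0.029 with litter as a block).

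**Figure D2:**
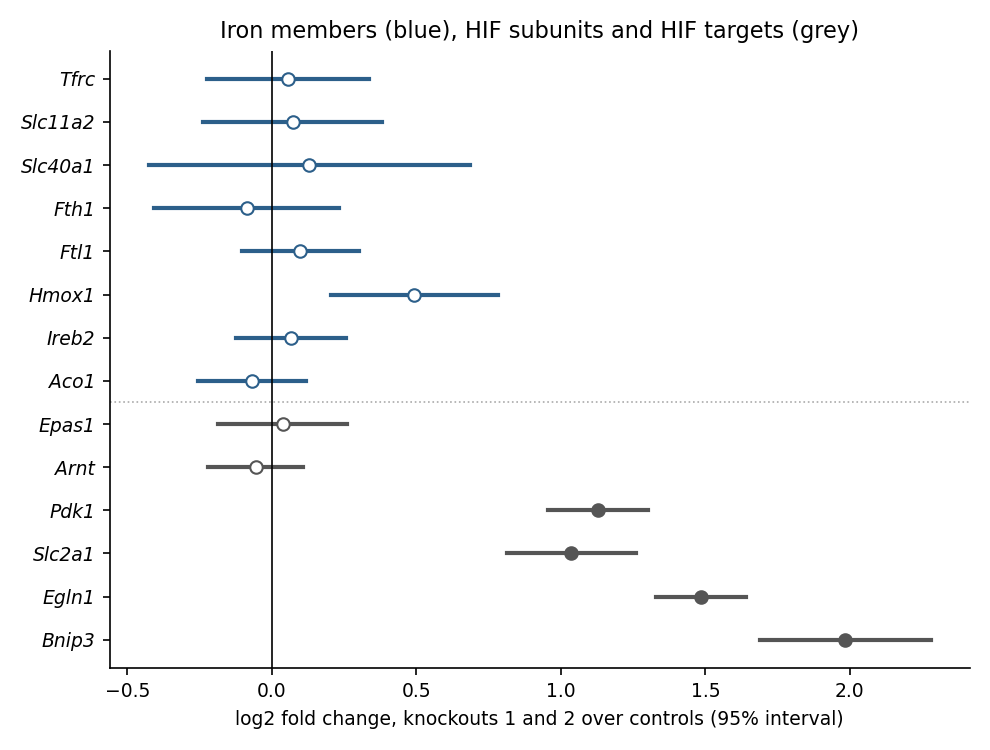
Log2 fold change of knockouts 1 and 2 over the 3 controls (horizontal axis, on log2(value + 1)) with its 95% limma interval for the 8 iron genes in blue and, in grey, HIF subunits and HIF targets; filled points had an adjusted p under 0.05. Intervals of 7 iron genes crossed 0, that of Hmox1 ran from 0.20 to 0.78, and those of Pdk1, Slc2a1, Egln1 and Bnip3 began at 0.81 or above.

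Promoter letters are shown for Tfrc because its HIF-binding site is a textbook case. RefSeq promoter windows (GRCm38.p6, 250 bases before to 50 after a start) held 5 of the 8 members. The motif TACGTGC, searched on both strands, was present in 1.01% of 13329 promoter windows, among them those of Tfrc and of Egln1, and its core ACGTG, which TACGTGC contains, in 25.1%. Matches are in capitals, 5′ to 3′ on the strand of the gene.
Tfrc, chr16:32608882-32608910, plus strand: ctcggtaggtgTACGTGCggaaggaagtg
Egln1, chr8:124949306-124949334, minus strand: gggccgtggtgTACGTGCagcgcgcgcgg
The match began 3 bases before the earlier of the RefSeq starts of Tfrc and 69 bases before that of Egln1. Tfrc and Egln1 thus shared these 7 letters near a start, with fold changes of 1.04 and 2.80, and a match of letters does not show that HIF binds there. The windows of Fth1, Ftl1, Ireb2 and Aco1 held no ACGTG. Of the other HIF targets, those of Slc2a1 and Bnip3 held it and that of Pdk1 did not. A second core, GCGTG, also searched on both strands, was present in 49.8% of windows. It stood 50 bases before a start of Fth1, 47 before that of Ftl1, and 78 and 2 before that of Pdk1. The windows of Tfrc, Egln1, Slc2a1 and Bnip3 held GCGTG too, and those of Ireb2 and Aco1 did not.

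Levels can be compared between members per length of transcript. Per kilobase of the principal transcript, control means were 791 ± 48.9 for Ftl1, 275 ± 34.6 for Fth1, 49.1 ± 5.08 for Tfrc, 29.1 ± 2.42 for Ireb2 and 13.4 ± 0.708 for Aco1 (SD, n = 3). Then came Slc11a2 at 9.09 ± 1.37, Hmox1 at 8.27 ± 0.759 and Slc40a1 at 5.25 ± 0.275. In the controls the neighbours Slc11a2 and Hmox1 differed by less than the SD of Slc11a2, and the other neighbours by more than the SD of either. In knockouts 1 and 2, Hmox1 lay between 11.8 and 11.95 per kilobase and Slc11a2 between 9.14 and 9.88. These lengths are of 1 transcript per gene, and those behind the deposited values are not known here.

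In the library labelled knockout 3, 6 of 8 members lay inside the control range, where 56.1% of all genes did. It had values of 247 for Tfrc, 28.8 for Slc11a2, 17.9 for Slc40a1, 396 for Fth1, 182 for Ireb2 and 52.9 for Aco1. Ftl1 at 693 and Hmox1 at 9.80 were below every control. With this library kept among the knockouts, limma called 0 of 13843 genes (0%), with 859 (6.21%) at an unadjusted p under 0.05 and 0 members among them, edgeR called 0 and DESeq2 11. The log2 fold change of Hmox1 was then 0.21 (limma adjusted p = 0.88), and those of the other members lay between -0.07 and 0.09.

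No member passed, so the genes most like a member were sought for Tfrc alone, among genes with a mean of at least 10. Over the 6 libraries, the sialomucin gene Cd164 followed it most closely (Pearson r = 0.994), at 350.04 and 295 in knockouts 1 and 2, 317 in labelled knockout 3 and 338, 300.1 and 293 in the controls. Next came the ceramidase gene Asah2 (r = 0.987) and the rhomboid protease gene Rhbdd1 (r = 0.986). Their log2 fold changes were 0.05, 0.05 and 0.04. The 6 points differ in genotype, litter and depth, and these values are a description.

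In the wider iron and heme pathway, about as many genes were called as the share over all genes would give. Over 7 lists with 107 genes in the table besides the members, 3 were higher and 0 lower (limma adjusted p under 0.05). Over all genes 4.25% were called, 3.01% higher and 1.24% lower. The median log2 fold change was 0.04, beside -0.01 over all genes. These were the heme synthesis genes Abcb6 and Cpox and the heme-binding protein gene Pgrmc1. All 3 were also called by DESeq2 and by edgeR with TMM scaling, whereas edgeR with library totals called 2 and lost Cpox (adjusted p = 0.057), and 0 were called with all 6 libraries. Leaving out single libraries of the 5 gave a count of 1 or 2.

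**Figure D3:**
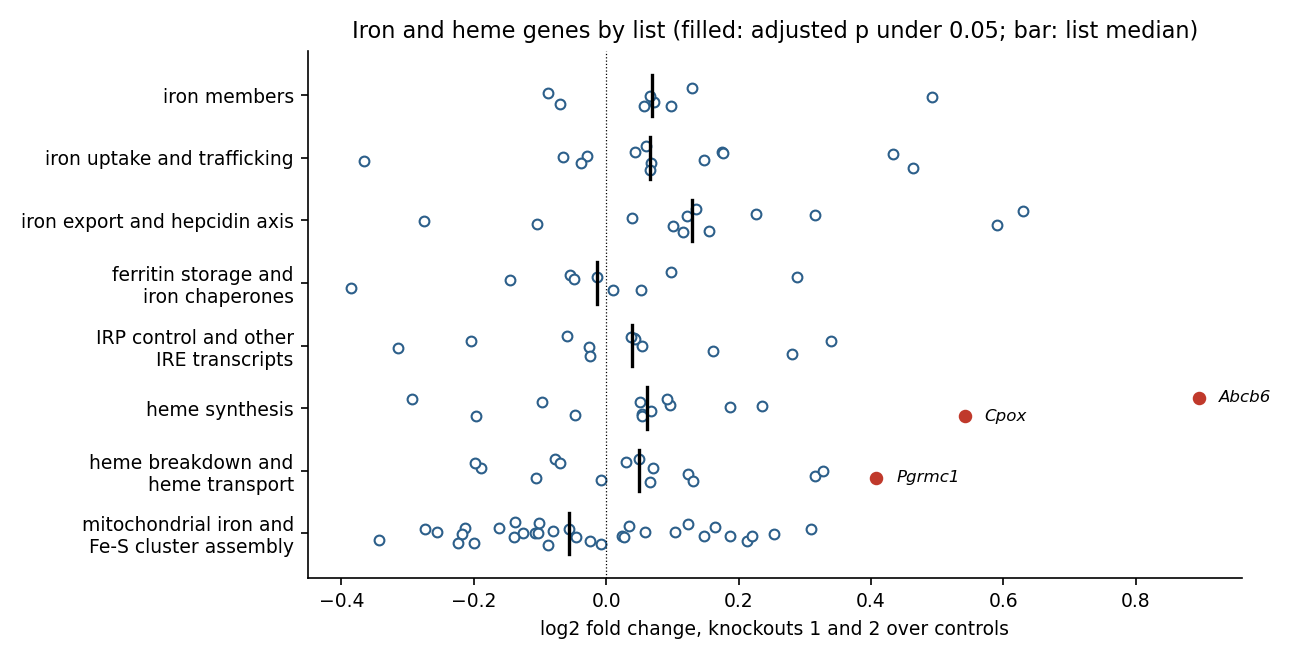
Log2 fold change of knockouts 1 and 2 over the 3 controls for each gene of the 8 iron members and the 7 wider lists, with 1 row per list and points jittered vertically; red filled points had an adjusted p under 0.05 and the black bar is the list median. Abcb6, Cpox and Pgrmc1 were called, and list medians lay between -0.06 and 0.13.

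In heme synthesis, 2 of 14 genes rose, 0 fell and 12 did not pass, where 3.01% of all genes rose and 1.24% fell. Abcb6 (chr1:75171717-75180392), a carrier linked to porphyrin import, had values of 24.9 and 28.7 in knockouts 1 and 2, 15.6 in labelled knockout 3 and 14.9, 14.1 and 12.8 in the controls. Both knockouts stood above every control, and the log2 fold change was 0.90 ± 0.12 (limma adjusted p = 0.0077; 0.0019 with litter as a block). Without knockout 2 its adjusted p was 0.068. Cpox (chr16:58670292-58717636), the coproporphyrinogen oxidase, had values of 69.5 and 88.2 in knockouts 1 and 2, 49.8 in labelled knockout 3 and 52.9, 58.0 and 49.8 in the controls, with a log2 fold change of 0.54 ± 0.12 (limma adjusted p = 0.046). Without controls 1, 2 and 3 in turn its log2 fold change was 0.53, 0.60 and 0.49, with adjusted p of 0.11, 0.093 and 0.12. Its call was also lost without knockout 2, where the log2 fold change was 0.37 (adjusted p = 0.18). Alas1, the general form of the enzyme that starts heme synthesis, had values of 46.4 and 48.6 in knockouts 1 and 2, against 59.9, 60.7 and 54.9 in the controls. It did not pass with 5 libraries (limma adjusted p = 0.10) and passed at a log2 fold change of -0.34 with litter as a block (0.047). Tmem14c, a mitochondrial porphyrin carrier (adjusted p = 0.15), and Clpx, a protein-unfolding enzyme that activates the first enzyme (0.35), had log2 fold changes of 0.24 and -0.20.

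**Figure D4:**
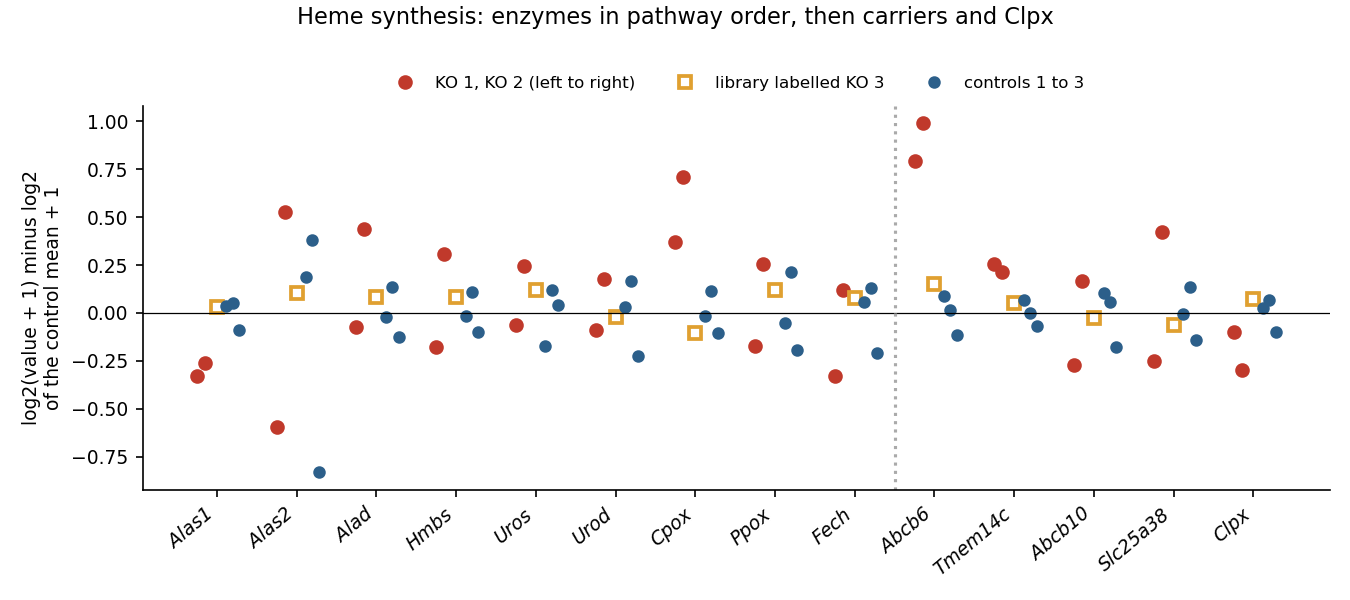
Values of 14 heme synthesis genes as log2(value + 1) minus log2 of the control mean + 1 (vertical axis), with enzymes in pathway order left of the dotted line and carriers and Clpx to its right; red points are knockouts 1 and 2, open squares the library labelled knockout 3 and blue points controls 1 to 3. Abcb6 and Cpox were higher in both knockouts than in every control, and Alas2 spread from 50.5 to 111 in the knockouts and from 42.7 to 100.3 in the controls.

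Between embryos of 1 group, most heme enzymes were lower where red blood cell RNA was lower, in the comparisons given here. Alas2, the erythroid form of the first enzyme, had values of 50.5 and 111 in knockouts 1 and 2, against 87.5, 100.3 and 42.7 in the controls. The 11 erythroid markers with a row (of 12; Ahsp had none) summed to 7039 and 15502 in knockouts 1 and 2 and to 12101, 14398 and 6383 in the controls, with 0 called, so the libraries low in Alas2 were those low in globins. All 9 enzymes of the pathway were lower in knockout 1 than in knockout 2, and all 9 were lower in control 3 than in control 2. Between controls 3 and 1 the order held for 8 of 9, the exception being Uros at 21.4 in control 3 and 18.3 in control 1. How many of all genes share this order was not counted. Across groups it did not hold for Cpox, which was 69.5 in knockout 1 and 58.0 in control 2. The part of red cell RNA in the Cpox and Abcb6 values was not tested. Tfrc, which red cell precursors are known to carry at high levels, did not follow this order, being highest in knockout 1. Slc25a37, the mitochondrial iron importer of red cell precursors, had values of 133 and 238 in knockouts 1 and 2, against 184.5, 204 and 116 in the controls.

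In heme breakdown and transport, 1 of 15 genes rose and 0 fell, beside the same shares of 3.01% and 1.24% over all genes. Pgrmc1 (chrX:36598206-36606079), which binds heme, had values of 123 and 108 in knockouts 1 and 2, 90.8 in labelled knockout 3 and 83.0, 89.9 and 86.4 in the controls. The log2 fold change was 0.41 ± 0.08 (limma adjusted p = 0.037), and without controls 1, 2 and 3 in turn it was 0.38, 0.44 and 0.41, with the call lost each time. The call was also lost without knockout 1, where the log2 fold change was 0.31 (adjusted p = 0.18). The porphyrin exporter Abcg2 (0.33, adjusted p = 0.15), the heme receptor Lrp1 (-0.11, 0.48) and the biliverdin reductase Blvra (-0.19, 0.53) had these log2 fold changes and did not pass. Of the 9 endothelial and endocardial markers, Emcn and Flt1 were called higher. Pecam1, Cdh5, Kdr and Tie1 lay above every control without passing, and Tek, Npr3 and Nfatc1 overlapped the controls. The 9 summed to 1731 and 1738 in knockouts 1 and 2 against 1494 to 1577 in the controls. Of the 8 fibroblast and smooth muscle markers, Tagln and Acta2 were called. The part of these markers in the changes of Abcb6, Cpox and Pgrmc1 was not tested.

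In the remaining lists 0 genes passed with 5 libraries (limma adjusted p under 0.05). Among genes of iron uptake and trafficking, 0 of 13 passed and 2 had an unadjusted p under 0.05, as 17.8% of all genes did. The metal reductase gene Steap2 had values of 12.8 and 11.1 in knockouts 1 and 2, against 9.43, 8.22 and 7.55 in the controls, and Steap3, the reductase of the transferrin cycle, had 11.9 and 15.2 in knockouts 1 and 2, against 19.6, 18.2 and 15.3 in the controls (adjusted p = 0.16 and 0.28). The ferritin receptor Scara5 had a low count, with 4 to 21 reads per library and a log2 fold change of 0.43 (adjusted p = 0.36). Among genes of iron export and the hepcidin axis, 0 of 12 passed. Hfe2, a muscle coreceptor of bone morphogenetic proteins also called hemojuvelin, had values of 12.8 and 12.4 in knockouts 1 and 2, against 8.32, 8.47 and 6.71 in the controls (log2 0.63 ± 0.15, adjusted p = 0.067). Its binding partner Neo1 had 121 and 114 in knockouts 1 and 2, against 151, 139 and 139 in the controls (log2 -0.28 ± 0.07, adjusted p = 0.093). Hfe, the partner of transferrin receptors mutated in human hemochromatosis, had 20.4 and 11.7 in knockouts 1 and 2, against 13.0, 7.72 and 9.75 in the controls (adjusted p = 0.30). With litter as a block Hfe (adjusted p = 0.036) and Neo1 (0.047) passed, in opposite directions.

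Of the genes that control iron regulatory proteins or carry other iron-responsive elements, 0 of 12 passed with 5 libraries. Fbxl5, the iron-sensing ubiquitin ligase subunit that removes the Ireb2 protein, had values of 87.2 and 73.9 in knockouts 1 and 2, against 61.6, 62.6 and 65.7 in the controls (log2 0.34 ± 0.09, limma adjusted p = 0.091). It passed with litter as a block (adjusted p = 0.036). The precursor gene App had a log2 fold change of 0.16 (adjusted p = 0.29). Among ferritin storage genes and iron chaperones, 0 of 9 passed. Bola2, which hands on iron-sulfur clusters in the cytosol, had 20.9 and 21.4 in knockouts 1 and 2, against 16.8, 16.8 and 17.8 in the controls (adjusted p = 0.21), and the iron chaperone genes Pcbp2 and Pcbp3 had log2 fold changes of -0.14 and -0.39 (0.46 and 0.37).

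Genes of mitochondrial iron and iron-sulfur cluster assembly had 0 of 33 past the threshold, with 20 of 33 log2 fold changes below 0 and a median of -0.06. Iscu, the scaffold on which clusters are built, had values of 21.3 and 25.2 in knockouts 1 and 2, against 28.6, 30.1 and 30.4 in the controls (log2 -0.34 ± 0.11, limma adjusted p = 0.14). Nfs1, which supplies the sulfur, had 42.8 and 42.1, against 54.1, 51.02 and 47.8 (adjusted p = 0.16). Hspa9, a mitochondrial chaperone of cluster transfer, had 586 and 539, against 718, 668 and 654 (adjusted p = 0.13), and was the 1 gene of the list that DESeq2 called (0.016). Both knockouts lay below every control for 7 of the 33 genes and above for 4, shares of 17% and 18.1% being those of all genes. Knockouts 1 and 2 had lower values than every control for Iscu, Nfs1 and Hspa9 alike, and labelled knockout 3 had 30.2, 48.7 and 702.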

How the data were processed

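Per the submitters' processing notes, CASAVA 1.8.2, cutadapt 1.3 and RSEM 1.2.3 were used with GRCm38. The annotation release and filter are not given in the sources used here, and the scaling method is not named. The factor of every library had a ratio of 1 to that of TMM scaling, computed on the recovered reads of the 6 libraries. The edgeR fit with TMM is therefore no separate check of the scaling. As deposited, the table holds a normalized signal: the authors divided whole reads by 1 factor per library (100% of values whole within 0.01 reads), and column sums were 987131 to 1017772. Every gene reached 1 in at least 3 libraries. Symbols, from a reference table of gene IDs, matched 13675 of 13843 genes. limma 3.58.1 with trend (R 4.3.3), on log2(value + 1), was the main test over all genes. edgeR 4.0.16 (TMM, and library totals) and DESeq2 1.42.0 ran on recovered reads as alternatives, and all were tested on simulated counts. Pairing follows the litters in the labels. Deviations from group means, over all 6 libraries as labelled, correlated at 0.20 in litter 1 and 0.28 in litter 2. The knockout mean there included labelled knockout 3, so these correlations are no clean check of the pairing. Named genes were the 8 members, Vhl, Nkx2-5, HIF genes and 4 targets, and from each list every called gene plus the 3 next smallest p-values, of which 1 is not reported here. Alas2, Uros, Slc25a37, Trf and Cybrd1 were named after their values were seen. Members and lists were chosen with earlier results of these data known.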

Additional observations from a re-analysis of the deposited data

How the results depend on the processing

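The count of 0 iron members called held under every alternative run (all 6 libraries, pseudocounts of 0.1 and 5, a mean of at least 10, edgeR, DESeq2, and each of the 5 libraries left out) except litter as a replicate block, which called 1, Hmox1. The 3 pathway genes called became 8 with the block and 0 with all 6 libraries by limma, edgeR or DESeq2 (the count tests on 6 libraries were chosen after seeing the data), and 1 to 2 without single libraries (2 without knockout 1, otherwise 1). The count was 2 with edgeR on library totals and 4 with DESeq2. Over all genes, 588 were called, 1125 with the block, 0 with all 6 libraries by limma and by edgeR and 11 by DESeq2, and 190 (without knockout 1) to 387 (without control 1) without single libraries. The log2 fold change of Slc11a2 was -0.0285 with the block. Without single libraries it ran from -0.0285 to 0.18 for Slc11a2, from -0.11 to 0.23 for Tfrc, from -0.33 to 0.59 for Slc40a1 and from -0.28 to 0.10 for Fth1, none past the threshold, with the sign turned by leaving out control 3 for Slc11a2, knockout 1 for Tfrc and Slc40a1, and knockout 1 or control 2 for Fth1. Why the counts moved was not tested beyond the construction of each setting (4 libraries with the block), and the cause was not tested for any member. With 1 knockout left, its spread is assumed to be that of the controls. Adding ferritin pseudogene rows was not run, since none has a row. Intervals cover the spread between 2 and 3 embryos, and Hmox1 rests on 107 to 232 reads per library.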
